A study of Homo sapiens with 2 samples.

Results

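The transcripts of the PI3K, AKT and MTOR signalling pathway were examined in SUM159, a line of triple-negative breast cancer cells, after it had acquired resistance to doxorubicin, which poisons topoisomerase II. The pathway was represented by 32 genes named by symbol, of the 23368 symbols counted, and all 32 were found in both count files. Polyadenylated RNA was sequenced in 2 libraries of 1 condition, replicates 1 and 2, both from attached cells with a genotype given as wild type. Mutations of the pathway genes were not examined here, and that label is not taken to mean that the line carries none. The cells carried resistance acquired under long treatment at rising doses of doxorubicin, in Ham's medium with 5% serum, with insulin at 5 μg/mL and hydrocortisone at 1 μg/mL. By the methods, exposure lasted 2 days and was followed by recovery without the drug. They do not say whether doxorubicin was present at harvest. No source used here says whether the replicates came from separate cultures or how many clones the resistant population holds, and the treatment-naïve libraries were not analysed here, so no comparison between resistant and sensitive cells was made. The values describe how much of each transcript the resistant cells held and how far the 2 libraries differed. They are amounts of mRNA, and phosphorylation of the proteins, by which the pathway works, was not measured.

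Class IA PI3K, a dimer of a catalytic and a regulatory subunit, is recruited to receptors of insulin and growth factors and makes the membrane lipid that draws PDK1 and AKT to the membrane. AKT restrains the TSC complex, which keeps the small GTPase RHEB off, and RHEB turns on MTOR complex 1, which promotes translation through the S6 kinases and the EIF4E-binding proteins and holds back autophagy through ULK1. AMPK, activated by STK11 when energy is low, acts against MTOR complex 1, and phosphatases such as INPP4B and the PHLPP enzymes oppose PI3K and AKT.

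Of the 32 genes, 30 (93.8%) reached a mean of 20 counts, against 12340 (52.8%) of all symbols, and the same 30 also passed a minimum mean of 100 counts. A mean of at least 1000 counts was found for 16. The remaining 2 were SGK3, a kinase related to AKT, and PRKAA2, the AMPK catalytic subunit alpha 2, which had 0 counts in both libraries. The pathway therefore had transcripts of every step in these cells, from the PI3K subunits to the effectors of translation. Across the 32 genes the median was 59.1 counts per 1000000 counts of the library (CPM), and the median of all genes with a mean of at least 20 counts was 34.1 CPM. Divided by exonic length, 14 of the 32 lay above the median of 6.47 CPM per kb over the 10767 such genes with a length.

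**Figure D1:**
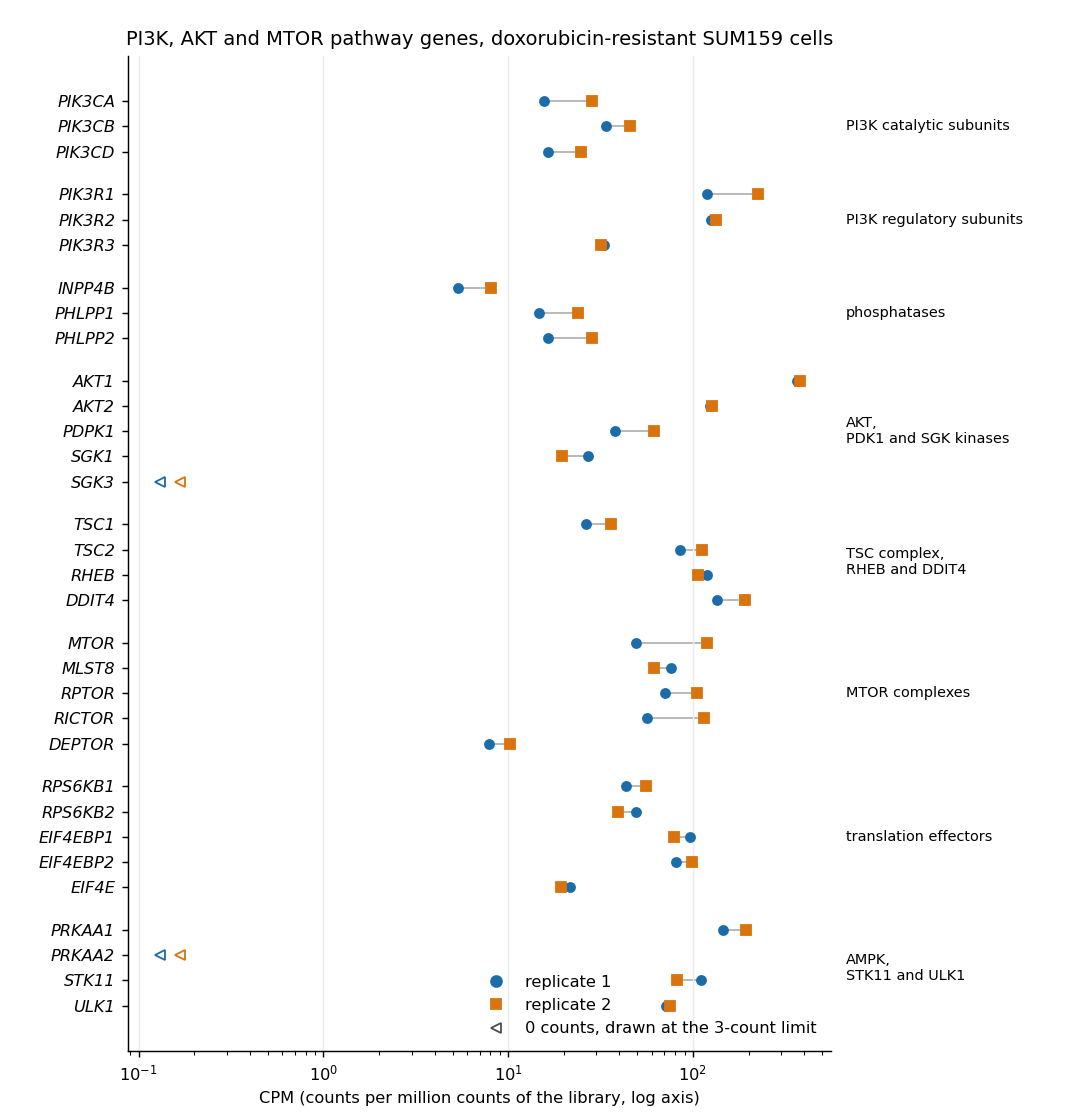
CPM of the 32 genes in each library on a log axis, grouped by role, with 1 point for each of the 2 libraries. AKT1 is highest at 366 and 377 CPM, INPP4B is the lowest of the detected genes at 5.34 and 8.12 CPM, and SGK3 and PRKAA2 had 0 counts.

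The libraries held 23044084 and 17985508 counts, so that 1 count was worth 0.0434 CPM in replicate 1 and 0.0556 CPM in replicate 2, and a count of 0, taken as fewer than 3 counts, allows up to 0.130 and 0.167 CPM where the counting leaves out no reads of the gene. Reads carried no molecular identifiers, so these limits and all intervals below cover counting error only. The line's markers were checked. All 4 mesenchymal markers were above the minimum count, with VIM at 7542 ± 873 CPM (SD, n = 2), whereas of the 4 epithelial ones KRT19 alone passed it, at 26 and 25 counts. ESR1 had 11 and 9 counts and PGR 2 and 0, and ERBB2 was at 99.7 ± 6.56 CPM (SD, n = 2). Markers of leukocytes, endothelium and blood were low, with a sum over 6 genes of 3.30 CPM in replicate 1 and 2.84 CPM in replicate 2. Of these 6, PTPRC at 48 and 31 counts and PECAM1 at 24 and 20 passed the minimum count, and HBB was at 0. In bulk RNA, fewer cells with a transcript and less of it in each cell cannot be told apart.

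Some pathway transcripts share stretches with other places in the genome, and a read from such a stretch cannot be placed by its sequence alone. For this reason 100-base windows, the read length, of the longest protein-coding transcript of each gene were searched in GRCh37. EIF4E, the cap-binding factor, had 1094 of 2328 windows (47.0%) elsewhere, on chromosome 17. All 1094 overlap the span of a long noncoding RNA gene there, and 496 of them overlap the processed pseudogene EIF4EP2. RHEB had 477 of 1947 windows (24.5%) elsewhere, on chromosome 10 in the pseudogenes RHEBP1 and RHEBP2 and around them. PDPK1, which encodes PDK1, had 1551 of 7085 (21.9%) elsewhere on chromosome 16, in the pseudogene PDPK2P and at the locus of ERVK13-1. PIK3CA followed with 6.53%, shared with chromosome 22, then PIK3R2 with 2.63%, RPS6KB1 with 1.38% and PHLPP2 with 0.215%, and the other 25 genes had 0. A coding window from each of EIF4E and PDPK1 is shown, because both are identical to the base at another locus. The EIF4E window is at chr4:99808244-99808343 on the minus strand of GRCh37 and recurs at chr17:47501900-47501999, and the PDPK1 window is at chr16:2607704-2607803 on the plus strand and recurs at chr16:2692391-2692490. No base is in capitals, since each window matches over its whole length.
EIF4E: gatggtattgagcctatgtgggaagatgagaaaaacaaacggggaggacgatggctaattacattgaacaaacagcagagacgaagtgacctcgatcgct
PDPK1: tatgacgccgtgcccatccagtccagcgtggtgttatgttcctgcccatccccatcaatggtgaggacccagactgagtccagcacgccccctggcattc
The sources used here do not state how reads with several matches were treated. The levels of EIF4E, RHEB and PDPK1 below are therefore uncertain, and the part of shared reads in them was not tested.

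**Figure D2:**
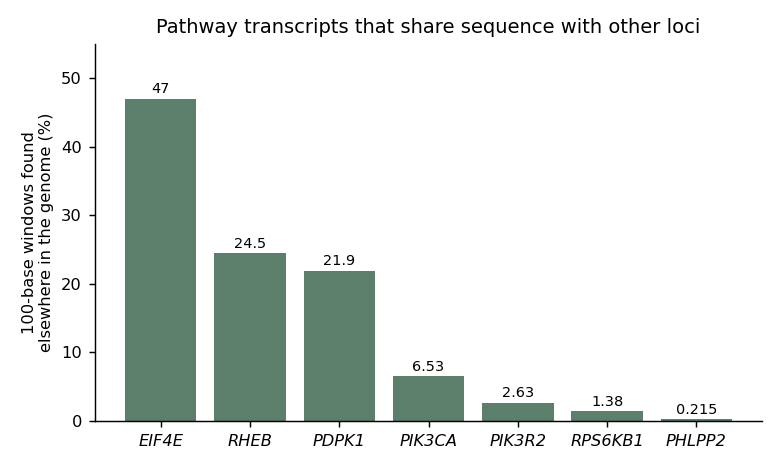
Percent of 100-base windows of the longest protein-coding transcript that occur elsewhere in GRCh37, for the 7 genes with any. The bars fall from 47.0% for EIF4E through 24.5% for RHEB and 21.9% for PDPK1 to 0.215% for PHLPP2.

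Among the class IA catalytic subunits, which phosphorylate the lipid, PIK3CB (p110 beta) had the highest level per length. PIK3CA (p110 alpha, chromosome 3 from 178865902 to 178957881 of GRCh37) had 359 and 510 counts, 15.6 CPM in replicate 1 and 28.4 CPM in replicate 2. PIK3CB had 33.9 and 45.6 CPM. PIK3CD (p110 delta, best known from leukocytes) had 16.5 and 24.7 CPM. All 3 were higher in replicate 2, a direction in which 30.1% of all genes tested passed the test described below. Per kb of exon the levels were 1.28 ± 0.526 for PIK3CA, 2.15 ± 0.606 for PIK3CD and 5.07 ± 1.05 CPM per kb for PIK3CB (SD, n = 2). PIK3CB made up 62.2% of the summed level per kb of the 3 in replicate 1 and 57.9% in replicate 2, and PIK3CA 13.0% and 16.4%. The ratio of PIK3CA to PIK3CB per kb was 0.209 (exact 95% interval 0.184 to 0.238) in replicate 1 and 0.284 (0.254 to 0.317) in replicate 2. With the length of the longest protein-coding transcript in place of all exons, the ratio was 0.310 and 0.420. Of the exonic bases of PIK3CA, 19.8% overlap KCNMB3 on the opposite strand, and no source used here gives the strand setting of the counting.

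The regulatory subunits, which hold the catalytic subunit stable and dock it on receptors, were more abundant in sum per length than the catalytic ones, though PIK3R3, at 4.37 ± 0.104 CPM per kb (SD, n = 2), lay near PIK3CB. PIK3R1 (p85 alpha, chromosome 5 from 67511568 to 67597649) had 2743 and 4038 counts, 119 CPM in replicate 1 and 225 CPM in replicate 2. PIK3R2 (p85 beta) had 125 and 133 CPM, and PIK3R3 (p55 gamma) 32.9 and 31.8 CPM. PIK3R1 thus differed widely between the libraries while the levels of PIK3R2 and PIK3R3 lay close together. Summed per kb, the regulatory genes were at 35.9 and 43.8 CPM per kb and the catalytic ones at 6.96 and 10.04, a ratio of 5.16 in replicate 1 and 4.36 in replicate 2. Of the regulatory sum, PIK3R2 held 67.3% in replicate 1 and 58.8% in replicate 2, and PIK3R1 20.3% and 31.4%. The order of PIK3R1 and PIK3R2 depended on the length used. Their ratio was 0.302 (exact 95% interval 0.286 to 0.318) and 0.534 (0.507 to 0.561) per kb of all exons, but 0.544 and 0.962 per kb of the longest protein-coding transcript, and with the latter the interval of replicate 2 no longer excluded equal levels.

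The 3 phosphatases among the 32 genes were at low levels. INPP4B, which removes a phosphate from the lipid downstream of PI3K, had 123 and 146 counts, 5.34 CPM in replicate 1 and 8.12 CPM in replicate 2, and its 0.462 ± 0.135 CPM per kb (SD, n = 2) exceeded 5.98% of the 10767 genes with a length and a mean of at least 20 counts. It was the lowest of the 30 detected genes on both scales. PHLPP1, a phosphatase of AKT, had 14.8 and 23.8 CPM, and its relative PHLPP2 had 16.4 and 28.5 CPM. Per kb the PHLPP genes were similar, at 2.13 ± 0.706 and 1.80 ± 0.683 CPM per kb (SD, n = 2). All 3 phosphatases were higher in replicate 2, a direction in which 30.1% of all genes tested passed the test described below. Their summed level was 36.5 CPM in replicate 1 and 60.4 CPM in replicate 2. After the length fit described below, their log2 ratios were 0.20 for INPP4B, 0.44 for PHLPP1 and 0.43 for PHLPP2.

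AKT1 took the most reads of the 32 genes. This kinase gene, on chromosome 14 from 105235686 to 105262088, had 8439 and 6786 counts, 366 CPM in replicate 1 and 377 CPM in replicate 2, and its 33.9 ± 0.716 CPM per kb (SD, n = 2) exceeded 88.6% of those genes. AKT2 had 123 and 126 CPM. Both genes lay close together in the 2 libraries, and neither passed the test between them described below. AKT1 was 4.32 times AKT2 per kb in replicate 1 (exact 95% interval 4.14 to 4.51) and 4.34 times in replicate 2 (4.14 to 4.56). The factor was 3.99 and 4.01 with the longest protein-coding transcripts and 1.86 and 1.87 with the longest transcripts of any kind, so its size, but not its direction, depended on the gene model.

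PDPK1, whose product phosphorylates AKT, had 871 and 1110 counts, 37.8 CPM in replicate 1 and 61.7 CPM in replicate 2. SGK1, a kinase downstream of MTOR complex 2 that glucocorticoids are known to induce, had 625 and 352 counts, 27.1 and 19.6 CPM. These neighbours in the pathway lay apart in opposite directions, with PDPK1 higher in replicate 2 and SGK1 higher in replicate 1. The medium of both libraries contained hydrocortisone, a glucocorticoid, and its part in the SGK1 level was not tested.

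SGK3 had 0 counts in both libraries, and whether it was transcribed cannot be told from this. Of its longest coding transcript, 2503 of 4190 bp (59.7%) lie inside the read-through gene C8orf44-SGK3 on the same strand, which is a symbol of the count files and also had 0 counts, while C8orf44, upstream of both, had 32 and 15. EIF4A1, the helicase of translation initiation that cells use widely, was likewise at 0, with 83.4% of its transcript inside the read-through gene SENP3-EIF4A1, which had 0 and 6 counts. EIF4EBP3, at 0 as well, had 73.2% inside ANKHD1-EIF4EBP3, which had 2 and 1 counts. A read that falls in more than 1 gene is commonly left out by the counting program, and whether this was done was not stated, so the loss of such reads was not tested. The part of each transcript outside its read-through gene had no counts either, and the reason was not tested.

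The TSC complex, RHEB and DDIT4 form the switch above MTOR complex 1. TSC1 had 26.4 and 36.1 CPM and TSC2, its GTPase-activating partner, 84.6 and 112 CPM, and per kb TSC1 was 0.364 of TSC2 in replicate 1 and 0.376 in replicate 2 (0.230 and 0.237 with the longest protein-coding transcripts). Both subunits were higher in replicate 2, as were 30.1% of all genes tested, and the ratio between them hardly moved. RHEB had 2761 and 1923 counts, 120 CPM in replicate 1 and 107 CPM in replicate 2, or 32.1 ± 2.58 CPM per kb (SD, n = 2). DDIT4, which encodes REDD1, an inhibitor of MTOR complex 1 induced by stress and glucocorticoids, had 3117 and 3460 counts, 135 and 192 CPM. DDIT4 is short, on chromosome 10 from 74033678 to 74035794, and its 79.6 ± 19.6 CPM per kb (SD, n = 2) exceeded 95.9% of the genes with a length and the minimum count. Per kb of all exons this was the second highest level of the 32. AKT1, the next, has 10955 bp of exon but 3916 bp in its longest protein-coding transcript, and the order under that length was not examined. TSC1 exceeded 20.7% and TSC2 41.6% of the same genes, and RHEB 87.9%, so that of the inhibitors here DDIT4 alone was above RHEB per length.

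**Figure D3:**
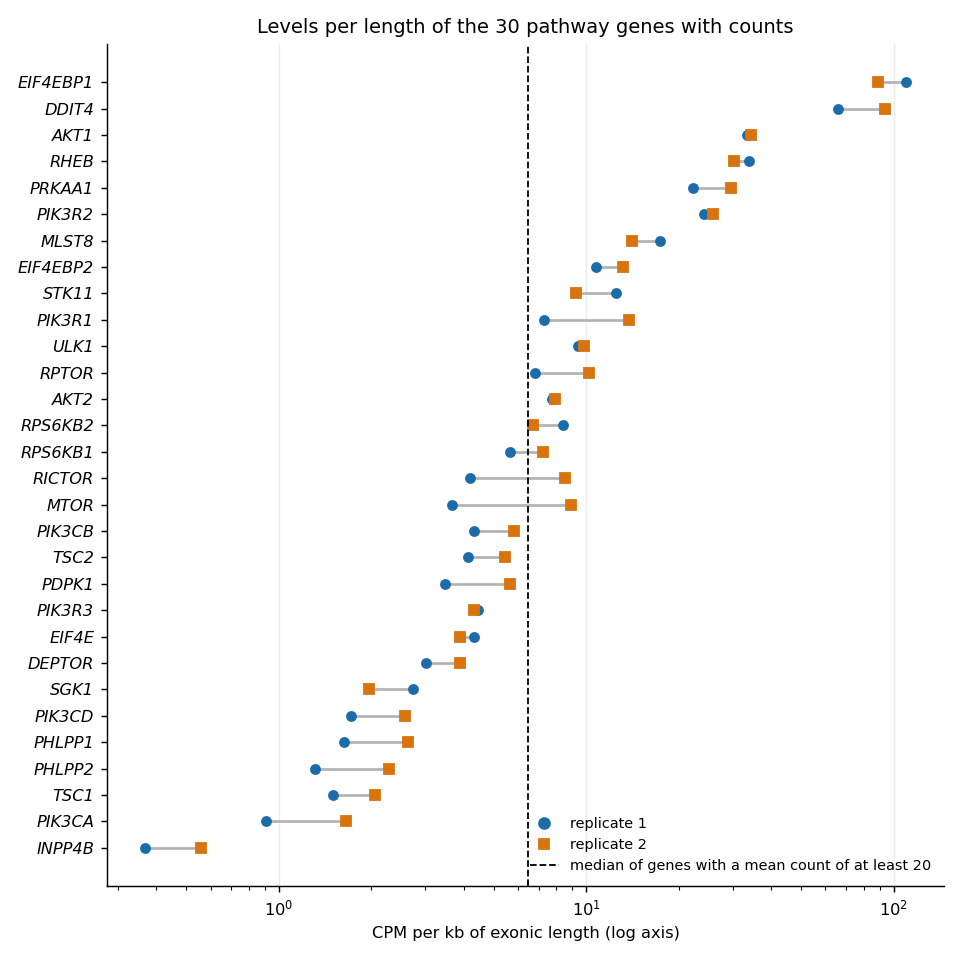
Level of the 30 detected genes in CPM per kb of exon, with the 2 libraries as points, ordered by their mean. EIF4EBP1 leads at 99.6 CPM per kb, followed by DDIT4 at 79.6 and AKT1 at 33.9, and INPP4B is last at 0.462.

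MTOR itself showed the largest fold difference between the libraries among the 30 detected genes. The kinase gene, on chromosome 1 from 11166592 to 11322613, had 1127 and 2148 counts, 48.9 CPM in replicate 1 and 119 CPM in replicate 2. RICTOR, the subunit that defines MTOR complex 2, had 56.2 and 115 CPM, and RPTOR, the scaffold of complex 1, had 70.3 and 105 CPM. Each of these 3 large subunits was higher in replicate 2, as were 30.1% of all genes tested. MLST8, a small subunit of both complexes, had 75.8 and 61.3 CPM. DEPTOR, an inhibitor within both complexes, had only 182 and 183 counts, 7.90 and 10.2 CPM. MLST8 was thus lower in replicate 2 while its partners were higher.

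As a result, the counted ratios between the subunits differed between the libraries. MLST8 was 4.75 times MTOR per kb in replicate 1 (exact 95% interval 4.41 to 5.13) and 1.57 times in replicate 2 (1.46 to 1.69). RPTOR to RICTOR went from 1.63 (1.52 to 1.76) to 1.19 (1.12 to 1.27). DEPTOR to MTOR was 0.822 (0.699 to 0.962) in replicate 1 and 0.434 (0.371 to 0.505) in replicate 2. None of these 3 pairs of intervals overlapped between the libraries, although each ratio stayed on the same side of 1 in both. Over all genes the library difference rose with exonic length, as described below, and these ratios were not corrected for it. The fitted log2 ratio of replicate 2 over replicate 1 was 0.38 at the length of MTOR, -0.055 for MLST8 and -0.25 for DEPTOR. For RPTOR it was 0.30 and for RICTOR 0.38. The part of length in these ratios was not tested.

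The effectors of translation were led by EIF4EBP1, which encodes the repressor of EIF4E that MTOR complex 1 inactivates. It had 2231 and 1412 counts, 96.8 CPM in replicate 1 and 78.5 CPM in replicate 2, and at 99.6 ± 14.7 CPM per kb (SD, n = 2) it was the highest of the 32 genes per length and exceeded 96.9% of the genes with a length and the minimum count. EIF4EBP2, the second such repressor, had 80.9 and 98.7 CPM. EIF4E, their target, had 21.5 and 19.3 CPM. Per kb EIF4EBP1 was 10.2 times EIF4EBP2 in replicate 1 (exact 95% interval 9.58 to 10.8) and 6.77 times in replicate 2 (6.31 to 7.26), and 25.5 and 23.0 times EIF4E. The factor over EIF4E was 13.2 and 11.9 with the longest protein-coding transcripts, and EIF4E is the gene with the most shared sequence, as shown above. More mRNA of the repressor than of its target was thus counted in both libraries under both lengths.

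The S6 kinases, which phosphorylate ribosomal protein S6, were at middle levels. RPS6KB1 had 1000 and 998 counts, 43.4 and 55.5 CPM, and RPS6KB2 had 1130 and 703 counts, 49.0 and 39.1 CPM. The raw counts of RPS6KB1 were nearly equal in the 2 libraries, and the difference in CPM came with the smaller total of replicate 2. The ratio of RPS6KB1 to RPS6KB2 per kb was 0.669 (exact 95% interval 0.613 to 0.729) in replicate 1 and 1.07 (0.973 to 1.18) in replicate 2. It was the 1 pair of the 13 with a ratio whose intervals did not point the same way in both libraries, and with the longest protein-coding transcripts it was 0.280 and 0.449, below 1 in both, whereas with the longest transcripts of any kind it was 0.893 and 1.43.

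**Figure D4:**
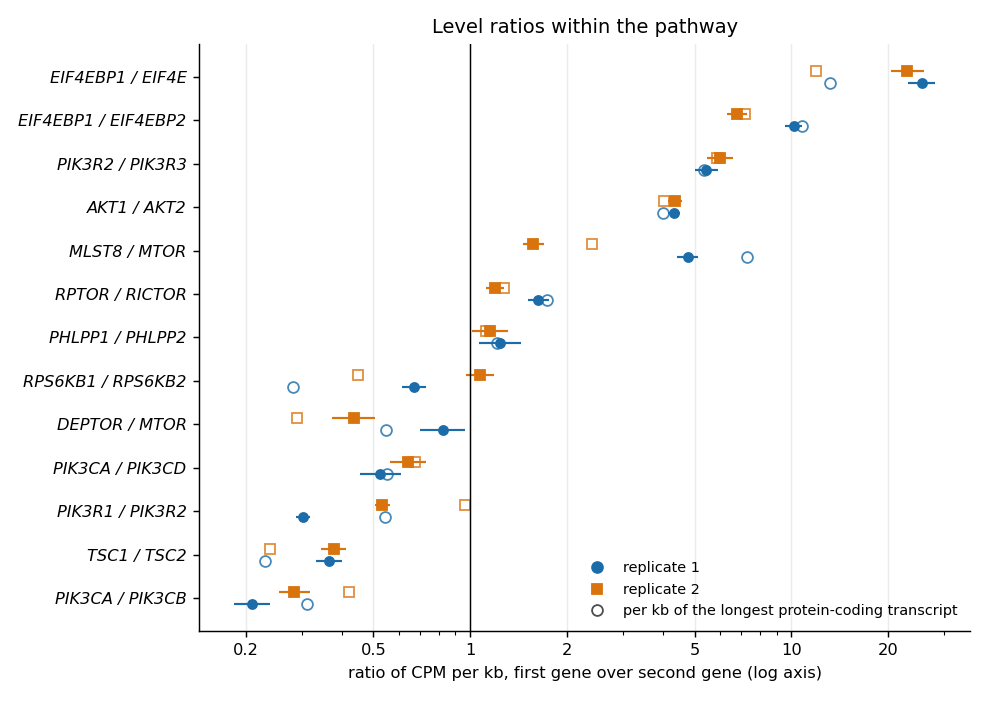
Ratio of levels per kb for 13 pairs of pathway genes in each library on a log axis, with exact 95% intervals for counting error. In 12 pairs both intervals lie on the same side of equality, RPS6KB1 over RPS6KB2 spans it in replicate 2, and MLST8 over MTOR moves from 4.75 to 1.57.

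The AMPK branch carried 1 catalytic isoform. PRKAA1 (alpha 1, chromosome 5 from 40759491 to 40798476) had 3361 and 3490 counts, 146 CPM in replicate 1 and 194 CPM in replicate 2, and 25.9 ± 5.20 CPM per kb (SD, n = 2). PRKAA2 (alpha 2, chromosome 1 from 57110987 to 57181008), the isoform known from muscle, had 0 counts in both, below 0.130 and 0.167 CPM. None of the windows of PRKAA2 occurs elsewhere in the genome. STK11, the kinase upstream of AMPK known as LKB1, had 2541 and 1471 counts, 110 and 81.8 CPM, and was higher in replicate 1. ULK1, the kinase that starts autophagy, had 71.4 and 75.1 CPM, nearly equal in the 2.

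Both AMPK genes start in CpG-rich sequence, which is shown because their counts lie at the opposite ends. In the 250 bases before the RefSeq start (GRCh38.p14), PRKAA1 held 31 CG dinucleotides at chr5:40798178-40798427 on the minus strand and PRKAA2 held 39 at chr1:56645064-56645313 on the plus strand. Both are written on the gene's strand with each CG in capitals.
PRKAA1: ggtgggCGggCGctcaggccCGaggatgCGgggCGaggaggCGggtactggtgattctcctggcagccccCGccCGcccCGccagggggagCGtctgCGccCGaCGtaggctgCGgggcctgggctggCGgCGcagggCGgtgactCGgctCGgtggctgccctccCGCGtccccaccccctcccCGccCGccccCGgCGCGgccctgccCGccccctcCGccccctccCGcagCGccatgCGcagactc
PRKAA2: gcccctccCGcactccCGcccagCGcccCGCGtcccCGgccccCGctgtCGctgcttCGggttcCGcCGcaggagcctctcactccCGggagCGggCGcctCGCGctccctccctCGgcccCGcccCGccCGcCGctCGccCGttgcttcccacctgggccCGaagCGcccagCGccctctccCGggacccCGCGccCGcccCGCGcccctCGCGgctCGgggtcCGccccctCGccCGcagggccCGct
A promoter was matched for 28 of the 32 genes, with a median of 23 CG against 11 over 27305 promoters, and PRKAA2, without a count, held more than 97.5% of them. Methylation was not measured, and nothing about the absence of PRKAA2 counts follows from these letters.

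Each gene was then compared between the 2 libraries by edgeR's exact binomial test, which sets 1 library against the other, covers counting error only and says nothing about a condition. Among the 30 genes tested, 19 (63.3%) were higher in replicate 2 at an adjusted p below 0.05, where 30.1% of the 13744 genes tested were, and 6 (20%) were higher in replicate 1, where 27.6% of all were. The 6 were SGK1, RHEB, MLST8, RPS6KB2, EIF4EBP1 and STK11. The remaining 5, PIK3R3, AKT1, AKT2, EIF4E and ULK1, did not pass. The share higher in replicate 2 was thus above the share of all genes, and the share higher in replicate 1 below it.

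A difference of at least 1.5-fold in either direction was found in 8 of the 30 (26.7%), near the 22.4% of all genes. All 8 were higher in replicate 2, and the share of all genes that far apart in this direction alone was not counted. MTOR was 2.44-fold higher there, a log2 ratio of 1.29 (adjusted p = 1.73e-136, exact binomial test of edgeR), which exceeded that of 98.0% of all genes. RICTOR followed at 1.03 on the log2 scale (adjusted p = 2.33e-92, same test), and PIK3R1 at 0.92 (adjusted p = 1.04e-146). The other 5 were PIK3CA at 0.86, PHLPP2 at 0.80, PDPK1 at 0.71, PHLPP1 at 0.69 and INPP4B at 0.60. They encode subunits of PI3K and of the MTOR complexes, phosphatases and PDK1. SGK1, with a log2 ratio of -0.47, and STK11, with -0.43, lay furthest toward replicate 1 among the 30.

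Exonic length moved with this difference. Over 11776 genes with a length, which share the 2 libraries, the log2 ratio of replicate 2 to replicate 1 rose with exonic length (Spearman's rho 0.52, across genes, which are not independent), and over the 30 pathway genes rho was 0.55. The pathway genes are long, with a median of 8931 bp of exon against 5431 bp over all genes. After a smooth fit on length over all genes, which took out 21.9% of the variance of the ratio, rho was 0.0147 over all genes and 0.11 over the 30. The number at least 1.5-fold apart was then 6 of the 30, a share not far from the 15.9% of all genes. MTOR stayed among them at 0.91, above 96.8% of all genes, with RICTOR at 0.65. DDIT4 at 0.84 and DEPTOR at 0.61, the latter from 182 and 183 counts, were added as short genes higher in replicate 2. SGK1 at -0.76 and STK11 at -0.67 were added as genes higher in replicate 1. PIK3R1 was then at 0.48 and PIK3CA at 0.41, under 1.5-fold. The fit also turned the sign of 3 genes that had passed the test, EIF4EBP1 from -0.30 to 0.18, TSC2 from 0.41 to -0.09 and TSC1 from 0.45 to -0.0049. The quality of the RNA was not recorded in the sources used here, and its part in the length relation was not tested.

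**Figure D5:**
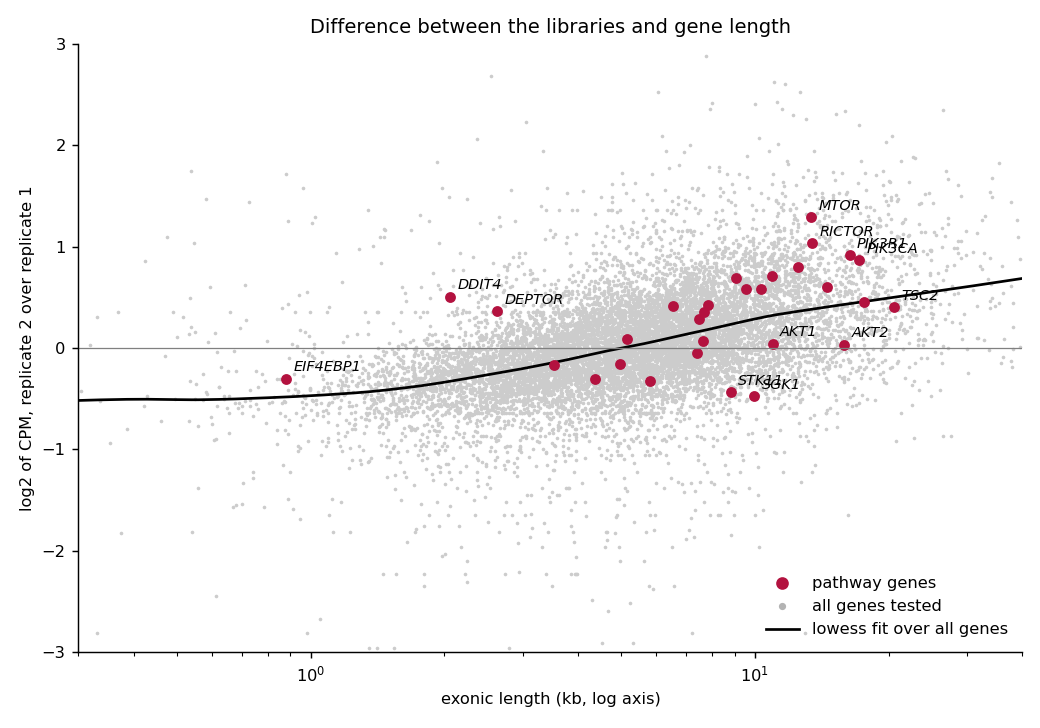
Log2 ratio of CPM in replicate 2 over replicate 1 against exonic length on a log axis, with all genes in grey, the fit over all genes as a line and the 30 pathway genes marked. The ratio rises with length (rho 0.52 over all genes), MTOR lies above the line and SGK1 and STK11 below it.

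The wider pathway was read from a list of 86 further genes, of which 75 had a mean of at least 20 counts and 5 were at 0. Of the 76 tested, 24 were higher in replicate 2, 22 higher in replicate 1 and 30 did not pass. Over all genes 30.1% were higher in replicate 2 and 27.6% in replicate 1, so both counts lie near the background. The group of other PI3K genes, which also held PIK3IP1 and PIK3AP1 though these are not subunits, was the least represented, with 5 of 10 at the minimum count. PIK3C2A, a class II PI3K, was the highest of them at 91.9 ± 34.8 CPM (SD, n = 2), and PIK3R5 and PIK3R6, subunits of the leukocyte class IB enzyme, were at 0. Among 10 adaptors and phosphoinositide phosphatases, 9 reached the minimum, from INPPL1 at 209 ± 0.913 CPM (SD, n = 2) down to INPP5D, the blood cell phosphatase SHIP1, at 2 and 2 counts.

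Further along the pathway most genes were present. Of 10 other AKT and SGK genes and AKT substrates 9 passed, with AKT1S1, an MTOR complex 1 inhibitor that AKT phosphorylates, at 113 ± 13.3 CPM (SD, n = 2) and SGK2 at 0 and 1 counts. All 7 other subunits of the MTOR and TSC complexes passed, from MAPKAP1 of complex 2 at 123 ± 6.44 CPM to PRR5L at 2.80 ± 0.339 CPM (SD, n = 2). For amino acid sensing, 19 of 20 passed, with LAMTOR1, which anchors the RAG GTPases to the lysosome, at 99.4 ± 17.5 CPM (SD, n = 2) and SESN3, a leucine sensor relative, at 5 and 5 counts.

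Of 10 other translation effectors 8 passed. EEF2, the elongation factor, was at 5265 CPM in replicate 1 and 5309 CPM in replicate 2 and did not pass the test, and EIF4A1 and EIF4EBP3 were at 0 as described. Of 11 other AMPK subunits and upstream kinases 10 passed, with CAB39, the scaffold of STK11, highest at 125 ± 16.4 CPM (SD, n = 2) and PRKAG3, the skeletal muscle gamma subunit, at 0. STK11 and PRKAA1 were thus counted together with their partners. All 8 genes of the autophagy group, which held initiation genes and transcription factors, passed. They ran from the transcription factor TFE3 at 110 ± 3.44 CPM to ULK2 at 16.4 ± 4.82 CPM (SD, n = 2).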

How the data were processed

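The deposited values are the authors' raw counts, 1 per gene symbol, in 2 libraries, replicates 1 and 2 of doxorubicin-resistant SUM159 cells in a monolayer. Libraries were made with a directional kit from polyadenylated RNA and read as single ends. The labels name TRI reagent for the extraction and the methods name the RNeasy kit. The submitters' processing notes list FastQC, HISAT2, HTSeq, deepTools and hg19, with no versions. The strand setting, the gene annotation and the handling of reads with several matches were not stated.

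CPM were computed from the total of all counts, and levels per kb from the union of exons in the GENCODE annotation of GRCh37, to which 19311 symbols (82.6%) were matched. Genes with at least 10 counts over both libraries were compared with the exact binomial test of edgeR, two-sided, with Benjamini-Hochberg adjustment and a threshold of 0.05. In 2 simulated libraries of 13752 genes, drawn with Poisson counting error alone, the test recovered 100% of 200 seeded 2-fold differences. It called 0.0664% of the others there, against 57.7% of the genes tested in the real libraries. The simulation held no variation between libraries beyond counting, so it gives no rate of false calls for these data. Length was fitted by lowess with a span of 0.3. Intervals of ratios are exact binomial intervals at 95%. Promoter sequences came from RefSeq. P-values set the difference between these libraries against counting error only, with no estimate of the spread between replicates, and the difference may be technical. The alternatives were TMM and DESeq2 library sizes, other minimum counts, other transcript lengths and each library left out. R 4.3.3, edgeR 4.0.16, DESeq2 1.42.0, Python 3.11.15, numpy 2.4.6, pandas 2.3.3, scipy 1.17.1, statsmodels 0.14.6 and matplotlib 3.10.9 were used.

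The 32 genes and the lists were chosen with earlier results of these data known. Named genes were the 32, the markers, and the highest and lowest gene of each group of the wider list, and any other was chosen after its values were seen. Values of some genes of the pathway are not reported here.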

Additional observations from a re-analysis of the deposited data

How the results depend on the processing

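The count of 30 pathway genes above the minimum did not move with minimum means of 10 or 100 counts or 1 CPM, or without either library. Genes called between the libraries numbered 7930, with a range of 7792 to 7958 under TMM or DESeq2 library sizes and other filters. TMM left 18 pathway genes higher in replicate 2 in place of 19, as PIK3R2 was lost (adjusted p = 0.0365 as reported), and 6 higher in replicate 1 under each of these. After the length fit, rho over all genes moved from 0.52 to 0.0147. The mean CPM of the 30 detected genes moved by less than their spread under TMM. With 2 libraries the mean cannot move by more than the SD when 1 is left out, so that outcome says nothing about stability. Without replicate 2 the mean was 48.9 in place of 84.2 CPM for MTOR and 56.2 in place of 85.7 CPM for RICTOR, the genes that moved by over 1.5 times. Of the 13 pair ratios, 5 moved further than the spread with the longest transcript and 6 with the longest protein-coding one, a length chosen after seeing the data. The mean log2 ratio of RPS6KB1 over RPS6KB2, which did not point the same way in both libraries, changed sign, from -0.24 to 0.18 with the longest transcript and 0.10 without replicate 1, and the other 12 kept their direction under these settings. The number of pairs pointing the same way in both libraries was 10 in place of 12 with the longest transcript, and PIK3R1 over PIK3R2 and PHLPP1 over PHLPP2 were lost under both lengths. With 1 library left, the interval excluded equal levels in 12 pairs without replicate 1 and in 13 without replicate 2. These 2 counts say nothing about agreement between the libraries. No paired analysis was possible because both libraries belong to 1 condition. Depth alone allows PRKAA2, at 0 counts, up to 0.130 and 0.167 CPM. For SGK3, EIF4A1 and EIF4EBP3, which overlap read-through genes over part of their transcripts, no such limit was drawn from the 0.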
